A study of Mus musculus with 10 samples.

Results

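Capillary endothelium moves fatty acids and glycerol between blood and tissue, and 9 genes of this transport were followed across the endothelial types of mouse femur and tibia. They were chosen by name for their role in it, with earlier results of these data known: Cd36, Gpihbp1, Fabp4, Fabp5, Aqp7, Meox2, Tcf15, Pparg and Rbp7. The 10 deposited count tables (UMIs by gene and cell) together listed 26504 genes. After 276 symbols listed in the aged tables alone were dropped, 22829 genes had UMIs in at least 3 cells, the 9 among them. All 9 passed the filter on low counts in the test between endothelial types, where 11175 genes remained. Cells with 500 to 6000 genes and less than 25% mitochondrial UMIs were used, which kept 46282 of 47466 barcodes.

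The mice were C57BL/6 animals with the Cdh5-mTnG transgene, which labels endothelial cells with nuclear GFP and membrane tdTomato. Juvenile mice of 3 weeks were of both sexes. Adult mice of 12 weeks, aged mice of 75 weeks, and mice of 12 weeks treated with PTH (parathyroid hormone, bone anabolic when given intermittently) or with alendronate (a bisphosphonate that blocks bone resorption) were female. Muscle was removed from the bones, cells of the blood lineages were depleted, and cells positive for both fluorescent proteins were sorted and sequenced as 2 libraries per group with 10x 3′ chemistry. Animals were pooled within a group and each experiment was done once. Whether the 2 libraries of a group came from 1 pool of animals is not given in the sources used here. The p-values measure only the spread between such libraries, which may be technical.

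Triglyceride-rich lipoproteins are a source of the fatty acids that reach endothelium, and lipoprotein lipase hydrolyses their triglycerides on the luminal face of capillaries. GPIHBP1 carries the lipase across the endothelial cell and holds it there. CD36 takes up long-chain fatty acids at the membrane, FABP4 and FABP5 bind them in the cytosol, and AQP7 is an aquaglyceroporin, a channel that passes glycerol as well as water. MEOX2, a homeodomain protein, and TCF15, a basic helix-loop-helix protein, form a heterodimer known from heart capillaries, where it drives fatty acid uptake genes. PPARG is the nuclear receptor that fatty acid ligands activate, and RBP7 is a small cytosolic retinol-binding protein of the same fold as the FABPs.

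Endothelial cells were grouped into 5 classes by clustering all 10 libraries together without the 9 genes. Sinusoidal cells of the marrow (bmEC-like, Stab2 and related markers) numbered 15647 and metaphyseal cells (mpEC-like, Ramp3 and Apln) 12448. Arterial cells (aEC-like, Gja4) numbered 7161, type R cells (rEC-like, Timp4 and Car4) 3020 and the Tagln/Vwf cells 1867, of 43733 endothelial cells in all. In the rEC-like class Timp4 stood at 1178 CPM and Car4 at 411 CPM, against at most 29.5 and 5.31 CPM in the other 4. The class was named by such markers, so these levels describe it and are no support for its name. The Tagln/Vwf cluster also had C1qtnf9 and Fmo2, which the study lists for type R cells, among its leading genes, and C1qtnf9 stood at 516 CPM there and 1087 CPM in rEC-like cells. The 2 classes therefore shared markers. Whether the study counted Tagln/Vwf cells as type R was not tested, and rEC-like here means the Timp4 and Car4 cells only. Apln alone did not separate mpEC-like cells, since it stood at 64.8 CPM there and 70.4 CPM in Tagln/Vwf cells, while Ramp3 stood at 406 and 55.1 CPM. CPM of the 9 genes and of pathway genes are UMIs scaled by a class's total in that library, over genes past the filter, and its TMM factor. Over all endothelial cells, all genes counted in the total. Marker values, single and summed, used plain totals. A further cluster of 2914 cells led by haemoglobin genes and carrying sinusoidal markers was kept out of the 5 classes, but is counted in the 43733, in the percentages of endothelial cells and in the sums over all endothelial cells.

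Total UMIs ran from 10653583 to 28419323 per library, and the rEC-like class rested on the fewest cells in juvenile replicates 1 and 2 (49 and 32 cells) and PTH replicate 1 (38 cells). Of endothelial cells it made up 1.19% and 0.835% with juvenile mice, 4.86% and 4.49% with adult, 14.5% and 14.2% with aged, 1.87% and 5.36% with PTH-treated and 11.8% and 12.3% with alendronate-treated mice. PTH replicate 1 held few shallow cells. In it 2186 of 2191 cells passed a stricter filter (1000 to 5000 genes, under 10% mitochondrial UMIs), against 6133 of 7580 in PTH replicate 2. The part of this in its rEC-like share was not tested. The aged libraries also stood apart before any comparison. Their tables alone listed 276 gene symbols beginning with U, which were dropped, and they shared 0.114% to 0.157% of barcodes with other libraries, against 0.456% to 1.47% among the rest. Leaving out both aged libraries changed 62 of 90 calls between classes to 64 and left the counts of the other groups at 20, 16 and 19, as given later.

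The genes lie on 7 chromosomes of GRCm38 in the GENCODE annotation, and no exon of theirs overlapped an exon of another gene. Aqp7 (41033074 to 41048139, minus strand) and Rbp7 (149449687 to 149454978, minus strand) are both on chromosome 4, and Fabp4 (10204088 to 10208576, minus strand) and Fabp5 (10012548 to 10016607, plus strand) are both on chromosome 3. Cd36 is on chromosome 5 (17781690 to 17888801, minus strand), Gpihbp1 on chromosome 15 (75596628 to 75599481, plus strand), Meox2 on chromosome 12 (37108540 to 37179534, plus strand), Tcf15 on chromosome 2 (152143561 to 152149097, plus strand) and Pparg on chromosome 6 (115360951 to 115490399, plus strand). Reads of 3′ chemistry fall near transcript ends. There, 2.81% of the 60-base words of Fabp5 were shared with Gm6166 and 4.24% of those of Aqp7 with 84 other genes, so a few of their UMIs could come from or be lost to other genes. The other 7 shared none.

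RefSeq start sites with a 250-base upstream window were at hand for 5 of the 9 genes, as 8 windows. The windows of Aqp7, Cd36 and Meox2 are printed because these 3 genes had their highest level in rEC-like cells throughout, and that of Rbp7 because its level mostly peaked elsewhere. Of the 2 starts of Aqp7 the one farther upstream was taken. Each is written 5′ to 3′ on the strand of the gene (GRCm38.p6) and ends at the base before the start, and capitals mark the E-box CANNTG, the core that basic helix-loop-helix proteins bind and a pattern that reads alike on both strands.
Aqp7, chr4:41048137-41048386, minus strand: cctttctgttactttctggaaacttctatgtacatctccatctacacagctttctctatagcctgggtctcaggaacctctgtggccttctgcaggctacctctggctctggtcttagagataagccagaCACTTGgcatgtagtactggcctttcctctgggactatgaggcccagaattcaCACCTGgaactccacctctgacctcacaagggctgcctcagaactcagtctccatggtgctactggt
Cd36, chr5:17835897-17836146, minus strand: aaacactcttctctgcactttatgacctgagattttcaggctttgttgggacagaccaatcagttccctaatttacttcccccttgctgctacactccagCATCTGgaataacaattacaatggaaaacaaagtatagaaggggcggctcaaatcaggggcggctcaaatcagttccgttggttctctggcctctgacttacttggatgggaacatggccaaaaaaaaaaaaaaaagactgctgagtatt
Meox2, chr12:37108290-37108539, plus strand: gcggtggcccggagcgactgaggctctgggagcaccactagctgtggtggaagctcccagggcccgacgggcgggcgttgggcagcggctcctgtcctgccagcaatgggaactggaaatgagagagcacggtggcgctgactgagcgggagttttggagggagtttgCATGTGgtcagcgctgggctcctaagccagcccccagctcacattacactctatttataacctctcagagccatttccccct
Rbp7, chr4:149454969-149455218, minus strand: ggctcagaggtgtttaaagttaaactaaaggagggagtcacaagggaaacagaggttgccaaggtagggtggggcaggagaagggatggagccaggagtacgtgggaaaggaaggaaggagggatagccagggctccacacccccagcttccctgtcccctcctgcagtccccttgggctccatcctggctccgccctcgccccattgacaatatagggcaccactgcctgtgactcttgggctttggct
The Aqp7 window held 2 E-boxes, at 120 and 67 bases before the start, those of Cd36 and Meox2 held 1 each, at 150 and 82 bases before it, and that of Rbp7 held none. Of the 3 windows of Pparg, which peaked in bmEC-like cells, 2 held 1 E-box each, at -247 and -173 from the start, and 1 held none. These windows therefore give no contrast between genes that peaked in rEC-like cells and the others. E-boxes were in 66.2% of the 32851 windows of all genes, so holding one is common, and a match is not a binding site.

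Cd36, the membrane uptake gene of the 9, peaked in rEC-like cells in 10 of 10 libraries. Cd36 stood at 3222 CPM ± 971 (SD over 10 libraries, as for all class means) in rEC-like cells, where the 10 libraries ran from 2096 to 5314 CPM. It stood at 939 ± 392 CPM in aEC-like, 832 ± 148 in Tagln/Vwf, 744 ± 194 in bmEC-like and 467 ± 132 in mpEC-like cells. The rEC-like level was higher than each of the others, with log2 differences of 2.11 ± 0.12 (SE) against bmEC-like, 2.80 against mpEC-like, 1.84 against aEC-like and 1.91 against Tagln/Vwf cells. Among the other 4 classes no difference of Cd36 exceeded 1 log2 unit. The p-values between classes describe how a difference repeats over the 10 libraries. They are not independent of the clustering, which used other genes of the same cells.

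Gpihbp1 followed another order. It was at 2336 ± 845 CPM in rEC-like and 2332 ± 328 CPM in mpEC-like cells, and 6 libraries had their peak in mpEC-like cells and 4 in rEC-like cells. The difference between these 2 classes was -0.05 on the log2 scale (edgeR adjusted p = 0.795), so they were not separated. Both exceeded aEC-like (1039 ± 327 CPM), bmEC-like (989 ± 74.5 CPM) and Tagln/Vwf cells (461 ± 225 CPM), by 1.17 and 1.21 log2 units over aEC-like and 1.18 and 1.23 over bmEC-like cells. The 1.17 of rEC-like over aEC-like cells fell to 0.92, under 1, with the largest cluster of each class.

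Of the cytosolic carriers, Fabp4 was abundant in every class and Fabp5 was not. Fabp4 stood at 22820 ± 4207 CPM in rEC-like and 21800 ± 3532 CPM in bmEC-like cells, a log2 difference of 0.06 ± 0.15 that did not pass the test (edgeR adjusted p = 0.730), and the rEC-like class was the higher one in 6 of 10 libraries. It was lower in mpEC-like (9460 ± 3254 CPM) and aEC-like cells (7953 ± 2640 CPM). In Tagln/Vwf cells Fabp4 stood at 14420 ± 3570 CPM, and its differences from rEC-like (0.67 log2 units) and bmEC-like cells (-0.60) were under the 1 log2 unit needed for a call. With the largest cluster of each class the mpEC-like cells stood less than 1 log2 unit from rEC-like (0.86) and bmEC-like cells (-0.79), and both calls of Fabp4 were lost. Fabp5 stood at 932 ± 246 CPM in rEC-like and 690 ± 196 CPM in Tagln/Vwf cells, against 102 ± 24.4 CPM in mpEC-like, 79.9 ± 19.9 CPM in aEC-like and 68.8 ± 16.9 CPM in bmEC-like cells. It was the rEC-like and the Tagln/Vwf cells that carried Fabp5, with log2 differences of 3.82 ± 0.14 and 3.36 from bmEC-like cells, and they differed from each other by 0.46, less than the 1 log2 unit needed for a call.

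Aqp7 was nearly limited to 1 class. It stood at 532 ± 57.8 CPM in rEC-like cells, between 428 and 634 CPM in all 10 libraries, and at 34.4 ± 22.1 CPM in Tagln/Vwf cells. In aEC-like cells it was at 9.1 ± 4.0 CPM, in mpEC-like cells at 2.24 CPM and in bmEC-like cells at 1.97 CPM. The log2 difference between rEC-like and bmEC-like cells was 8.0 ± 0.16 (edgeR adjusted p = 1.76e-52), and that from the nearest class, Tagln/Vwf, was 3.87. The study listed Aqp7 among its markers of type R cells and Fabp4 and Pparg among those of sinusoidal cells, chosen on juvenile, adult and aged cells of this series, so their peaks are not independent of its annotation.

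The pair of transcription factors shared the rEC-like peak and parted elsewhere. Meox2 stood at 271 ± 46.8 CPM in rEC-like and 194 ± 34.6 CPM in Tagln/Vwf cells, 0.45 apart on the log2 scale and below the fold needed for a call. It was at 10.3 ± 3.60 CPM in aEC-like, 1.85 CPM in mpEC-like and 1.12 CPM in bmEC-like cells. Tcf15 stood at 923 ± 245 CPM in rEC-like cells, followed by aEC-like (204 ± 89.8 CPM), Tagln/Vwf (93.3 ± 62.9 CPM), mpEC-like (57.4 ± 28.8 CPM) and bmEC-like cells (9.38 ± 4.80 CPM). Tagln/Vwf cells thus held Meox2 at a level close to that of rEC-like cells with 3.26 log2 units less Tcf15. The aEC-like cells held Tcf15 at 4.52 log2 units over bmEC-like cells with little Meox2.

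Pparg ran the other way. It peaked in bmEC-like cells in 10 of 10 libraries, at 326 ± 96.9 CPM, and stood at 126 ± 33.3 CPM in mpEC-like, 104 ± 23.6 CPM in rEC-like, 80.1 ± 15.9 CPM in aEC-like and 32.6 ± 6.47 CPM in Tagln/Vwf cells. The rEC-like level lay 1.68 ± 0.14 log2 units below the bmEC-like level, and its differences from mpEC-like cells (-0.32, edgeR adjusted p = 0.0561) and aEC-like cells (0.36, edgeR adjusted p = 0.0635) did not pass the test. Rbp7 was the arterial member of the group, at 649 ± 169 CPM in aEC-like, 490 ± 212 CPM in rEC-like, 246 ± 16.5 CPM in mpEC-like, 173 ± 67.6 CPM in Tagln/Vwf and 19.1 ± 6.22 CPM in bmEC-like cells. The peak was in aEC-like cells in 9 of 10 libraries, and its distance to rEC-like cells was 0.46 log2 units, under the fold needed for a call. The distance to mpEC-like cells was 1.37, which fell to 0.79 with the largest cluster of each class and to 0.95 without integration, both under that fold.

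**Figure D1:**
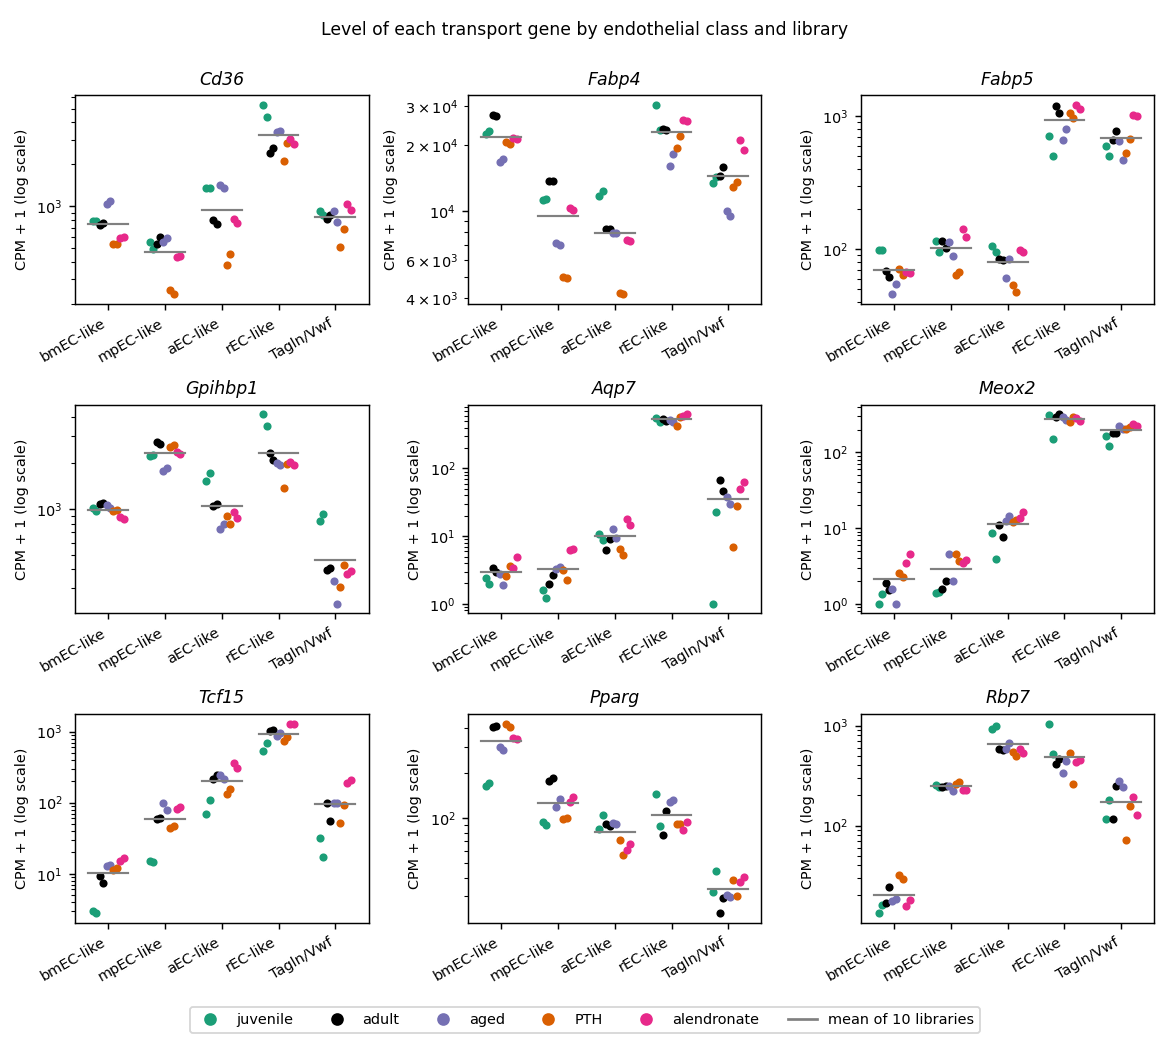
Level of each of the 9 genes in the 5 endothelial classes, in CPM plus 1 on a log axis, with 1 dot per library coloured by group and a grey line at the mean of the 10 libraries. The 10 rEC-like dots of Aqp7, Cd36, Fabp5, Meox2 and Tcf15 lie above those of the other classes in their own library, while Pparg is highest in bmEC-like and Rbp7 mostly in aEC-like cells.

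Counted over all pairs of classes, 62 of 90 tests called a member, at an adjusted p under 0.05 and a difference over 1 log2 unit. Against bmEC-like cells, rEC-like cells had 7 of the 9 genes higher, 1 lower and 1 not called, where 22.7% of all genes tested were called. They had 6 higher and 3 not called against mpEC-like (16.6% of all genes), 7 higher and 2 not called against aEC-like (10.8%) and 6 higher and 3 not called against Tagln/Vwf cells (11.3%). The median difference of the 9 genes in these comparisons was 3.82, 2.80, 1.84 and 1.62 log2 units, and that of all genes tested -0.04, -0.02, -0.01 and 0.00. Every share of the 9 was above that of all genes, and each median was positive. Because the genes were chosen with earlier results of these data known, this describes them and is not an independent test. Among markers of other cells, 5 detected myofibre genes summed to 23.8 CPM in rEC-like cells (0 to 39.9 over libraries, 0 in both juvenile libraries) and to 1.8 to 5.9 CPM in the other classes, mostly Mylpf at 19.9 CPM, while Ckm, muscle creatine kinase, was at 0.068 CPM. Their part in the rEC-like levels was not tested.

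Tagln/Vwf cells had 5 of the 9 higher and 2 lower than bmEC-like cells (18.1% of all genes called), 3 higher and 2 lower than mpEC-like cells (13.7%) and 3 higher and 4 lower than aEC-like cells (11.9%). The aEC-like cells had 4 higher and 2 lower than bmEC-like cells (18.9%) and 4 higher and 1 lower than mpEC-like cells (11.8%), and mpEC-like cells had 3 higher and 2 lower than bmEC-like cells (10.9%). Outside the rEC-like class the 9 genes thus differed between classes without a common direction.

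Shares of single cells were compared at equal depth. Each cell was thinned to 1000 UMIs, which left out 341 rEC-like, 639 mpEC-like, 283 aEC-like, 74 bmEC-like and 60 Tagln/Vwf cells with fewer, and haematopoietic cells of the same libraries gave the background from free RNA. Myeloid cells are known to express Cd36, Fabp4, Fabp5 and Pparg themselves, so for these 4 genes the background holds their own expression as well as free RNA. The haematopoietic cells had a median of 5232 UMIs before thinning, against 2037 in rEC-like and 4039 in bmEC-like cells. Thinning therefore removed a larger part of their UMIs, and the thinned background can understate free RNA in the shallower classes. At 1000 UMIs, Aqp7 had a UMI in 40.6% ± 3.92 of rEC-like cells, 2.79% of Tagln/Vwf, 0.869% of aEC-like, 0.282% of bmEC-like and 0.188% of mpEC-like cells, against 0.0412% of haematopoietic cells. Cd36 had one in 88.4% ± 6.81 of rEC-like and 31.9% to 46.0% of other endothelial cells, against 9.44% in the background. Tcf15 had one in 52.1% of rEC-like and 16.4% of aEC-like cells but 0.890% of bmEC-like cells, under the background of 1.55%, so in bmEC-like cells it was not told from free RNA. The same held for Rbp7 in bmEC-like cells (1.40% against 1.90%), for Meox2 in bmEC-like cells (0.0768% against 0.215%) and for Fabp5 in aEC-like and bmEC-like cells (6.27% and 5.51% against 6.38%). At 2000 UMIs, Aqp7 was in 0.329% of bmEC-like and 0.414% of mpEC-like cells, against 0.417% of haematopoietic cells. It was thus not told from free RNA there, nor at full depth (0.810% and 0.858% against 1.53%). In mpEC-like cells Fabp5 (7.85%) and Meox2 (0.270%) were above the background at 1000 UMIs. At 2000 UMIs they were not (14.4% against 14.6% and 0.367% against 0.821%).

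Fabp4 had a UMI in 99.0% of the rEC-like class and 99.5% of the bmEC-like class, but also in 52.0% ± 20.6 of haematopoietic cells, so its share says little by itself. Gpihbp1 had one in 79.9% of mpEC-like and 75.8% of rEC-like cells (background 11.8%), Pparg in 24.5% of bmEC-like and 9.93% of rEC-like cells (2.01%), Meox2 in 21.2% of rEC-like and 17.1% of Tagln/Vwf cells, Fabp5 in 48.0% and 36.9% of the same classes, and Rbp7 in 31.5% of aEC-like and 24.2% of rEC-like cells. At full depth the shares were higher in the background too, with Aqp7 at 61.4% of rEC-like and 1.53% of haematopoietic cells, Cd36 at 95.7% and 28.7%, Fabp4 at 99.6% and 88.1%, Fabp5 at 67.3% and 34.3%, Tcf15 at 71.3% and 6.87% and Meox2 at 40.9% and 1.53%. Gpihbp1 at full depth was in 93.3% of mpEC-like, Pparg in 62.9% of bmEC-like and Rbp7 in 52.2% of aEC-like cells, against 39.8%, 13.2% and 10.4% of haematopoietic cells.

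**Figure D2:**
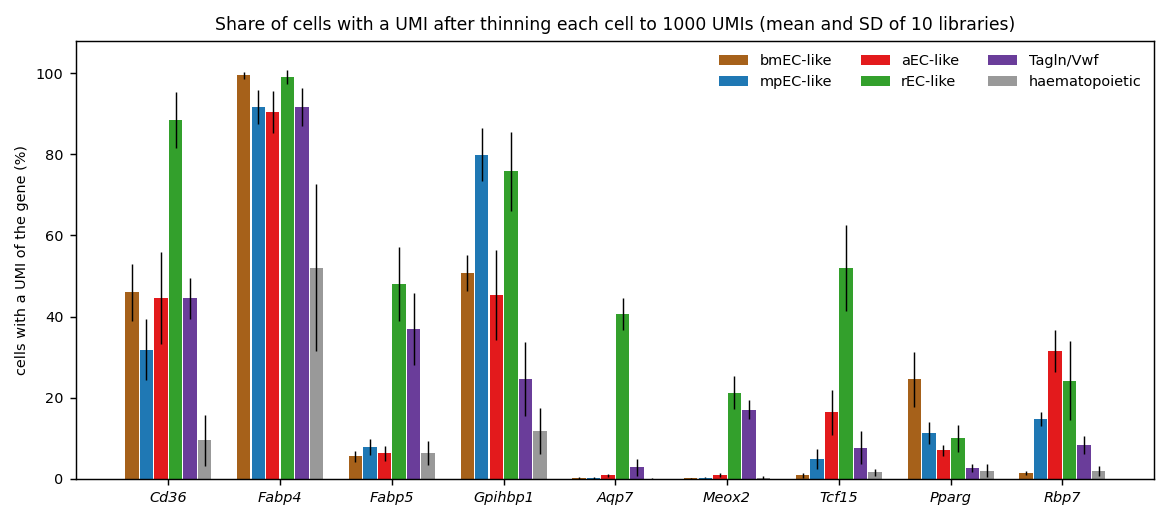
Share of cells with at least 1 UMI of each gene after thinning every cell to 1000 UMIs, in the 5 endothelial classes and in haematopoietic cells, as bars of the mean of the 10 libraries with their SD. Aqp7 reaches 40.6% in rEC-like cells and at most 2.79% elsewhere, and Fabp4 has a UMI in 52.0% of haematopoietic cells.

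The classes were not uniform inside, which is described without a test because the clusters within a class were defined on these cells. In the sinusoidal class, a small cluster led by Ptx3 and Madcam1 (696 cells) held Cd36 at 1192 ± 488 CPM and Gpihbp1 at 1939 ± 380 CPM, against 650 and 807 CPM in the main cluster. Among arterial cells, those led by Mgp, Gkn3 and Clu held Gpihbp1 at 216 ± 118 CPM and Rbp7 at 230 CPM, against 1252 and 761 CPM in the main Gja4 cluster, and Meox2 at 37.5 CPM against 3.9 CPM. Of the 3 genes only Meox2 was higher in that cluster. Among metaphyseal cells, cluster 2 held Rbp7 at 435 ± 111 CPM, Fabp4 at 13027 CPM and Cd36 at 703 CPM. Cluster 3 held 137, 7588 and 258 CPM of the same genes, and the cluster led by Apln and Kit held Rbp7 at 41 CPM and Gpihbp1 at 2555 CPM. Cluster 2 was the largest metaphyseal cluster in 8 libraries and cluster 3 in the 2 juvenile libraries. A further metaphyseal cluster of 2000 cells was shallow, with a median of 1209.5 UMIs. It made up 13.0% and 7.87% of mpEC-like cells in adult, 20.9% and 23.3% in aged, 3.74% and 22.7% in PTH and 26.2% and 22.9% in alendronate libraries. It held Aqp7 at 6.92 ± 8.12 CPM, against 1.94 and 1.46 CPM in clusters 2 and 3. Its part in the changes of the class was not tested.

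Summed over all endothelial cells, Aqp7, Meox2 and Tcf15 were lowest in the juvenile and highest in the aged and alendronate libraries, as was the share of rEC-like cells. Aqp7 was at 5.69 and 3.99 CPM in juvenile, 17.7 and 16.2 in adult, 45.6 and 40.3 in aged, 10.4 and 21.9 in PTH and 50.2 and 57.5 in alendronate libraries. Tcf15 was at 13.6 and 16.2 CPM in juvenile, 80.6 and 80.9 in adult, 154 and 150 in aged, 63.4 and 86.6 in PTH and 197 and 194 in alendronate libraries. Against the adult libraries, Aqp7 changed by -1.82, 1.32 and 1.66 log2 units in juvenile, aged and alendronate libraries, Meox2 by -1.93, 1.37 and 1.57 and Tcf15 by -2.45, 0.89 and 1.27. In these sums 8 of the 9 genes were called in juvenile (43.1% of all genes called), 9 in aged (73.7%), 5 in PTH (29.6%) and 8 in alendronate libraries (27.9%). Fewer cells of a type and less RNA per cell cannot be told apart in such sums, nor can they tell a change within a type from one in its share. The comparisons that follow were made within classes.

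Within the rEC-like class Aqp7 differed little between groups. The juvenile libraries held 554 and 491 CPM, the adult 541 and 508, the aged 518 and 494, the PTH 428 and 569 and the alendronate libraries 587 and 634. The 4 log2 differences from adult libraries ran from -0.05 to 0.20 and none passed the test, and Meox2 in the same class ran from -0.24 to -0.09 with none past it. In other classes Aqp7 was called in mpEC-like and aEC-like cells of alendronate libraries, at 5.15 and 5.57 against 0.933 and 1.65 CPM and at 17.0 and 13.5 against 5.20 and 8.06 CPM (1.19 ± 0.29 on the log2 scale). The aEC-like call was lost without adult replicate 1 (0.90, edgeR adjusted p = 0.179) without alendronate replicate 1 (1.02, edgeR adjusted p = 0.0944), with the highest doublet scores removed (0.90, edgeR adjusted p = 0.079) and with classes from the rule's markers (1.17, edgeR adjusted p = 0.0624). These levels are low, and over all libraries Aqp7 in mpEC-like cells was not told from free RNA at 2000 UMIs. The alendronate libraries held 11.8% and 12.3% rEC-like cells against 4.86% and 4.49% in the adult libraries. The aged libraries, with 14.5% and 14.2%, had 2.31 and 2.5 CPM in mpEC-like cells. Beyond the removal of doublets, the part of RNA from rEC-like cells in these levels was not tested.

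**Figure D3:**
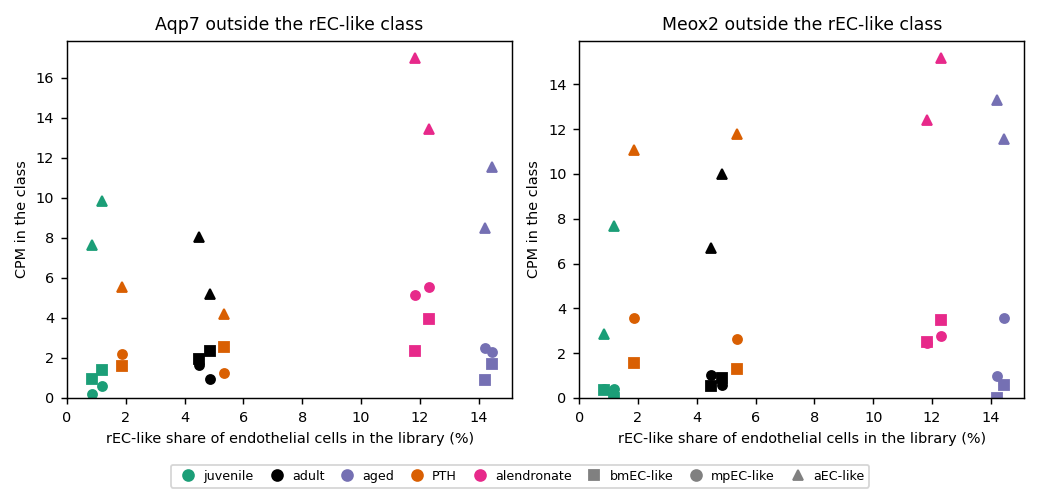
Levels of Aqp7 and Meox2 outside the rEC-like class, in CPM, against the share of rEC-like cells among endothelial cells of the same library, in percent. Each dot is 1 class of 1 library, and the highest levels of Aqp7 in mpEC-like and aEC-like cells are in the alendronate libraries, where rEC-like cells made up 11.8% and 12.3%.

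The juvenile libraries addressed how the transport genes stand in growing bone. They were of both sexes and the adult ones female, so age and sex cannot be told apart. This and the 3 other comparisons between groups shared the same 2 adult libraries. Statements on which libraries lie above or below others are descriptions, and how often this held over all genes was not counted. Tcf15 was lower in all 4 classes. In mpEC-like cells Tcf15 was at 14.2 and 13.8 CPM in juvenile and 57.5 and 58.9 CPM in adult libraries, and in aEC-like cells at 67.9 and 109 against 216 and 241 CPM. In rEC-like cells it was at 537 and 680 against 1024 and 1037 CPM. The juvenile libraries were below both adult libraries in each class. The log2 differences were -2.05 ± 0.13, -1.35 ± 0.14 and -0.71 ± 0.15, and -1.96 ± 0.26 in bmEC-like cells, where the level was near the background. Of endothelial cells, 1.19% and 0.835% were rEC-like in juvenile libraries, against 4.86% and 4.49% in adult ones. Beyond the removal of doublets, the part of rEC-like RNA in the Tcf15 levels of other classes was not tested. Without integration the mpEC-like and bmEC-like differences of Tcf15 were -1.19 and -1.22, and with the largest cluster of each class the bmEC-like one was -1.09. The rEC-like call was lost without juvenile replicate 1 (-0.59, edgeR adjusted p = 0.208).

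Cd36 and Gpihbp1 went up in juvenile rEC-like and aEC-like cells. Cd36 stood at 5314 and 4370 CPM in juvenile against 2394 and 2594 CPM in adult rEC-like cells (1.05 ± 0.11, edgeR adjusted p = 3.84e-13), and at 1346 and 1349 against 790 and 743 CPM in aEC-like cells (0.81 ± 0.06). Gpihbp1 stood at 4182 and 3513 against 2309 and 2084 CPM in rEC-like cells (0.90 ± 0.11) and at 1518 and 1718 against 1044 and 1079 CPM in aEC-like cells (0.61 ± 0.07). Both genes were higher in each juvenile library than in either adult library. In bmEC-like and mpEC-like cells Cd36 was not called (0.08 and -0.13). There Gpihbp1 was lower by -0.12 and -0.28, changes that were lost or turned in sign under some of the alternatives. Fabp5 in rEC-like cells fell, from 1195 and 1059 CPM in adult to 715 and 504 CPM in juvenile libraries (-0.77 ± 0.15), and this call was lost without juvenile replicate 2 (-0.62, edgeR adjusted p = 0.0568).

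Pparg was lower in the juvenile sinusoidal and metaphyseal classes. It stood at 164 and 171 CPM in juvenile against 406 and 414 CPM in adult bmEC-like cells (-1.29 ± 0.04) and at 94.1 and 89.4 against 176 and 184 CPM in mpEC-like cells (-0.97 ± 0.07, and -0.50 within the largest mpEC-like cluster). In the same bmEC-like sums the summed markers of adipocytes, whose own defining Adipoq and Plin1 were at 3.32 and 0.20 CPM as class means and whose sum was nearly all Cfd, were at 26.3 and 34.2 CPM in juvenile and 343 and 368 CPM in adult libraries. Their part in the result was not tested. Rbp7 in aEC-like cells was at 920 and 992 CPM in juvenile against 588 and 574 CPM in adult libraries (0.72 ± 0.07). In rEC-like cells the 2 juvenile libraries were at 1048 and 516 CPM and apart from each other, and the call (0.99 ± 0.19) was lost without juvenile replicate 1 (0.26, edgeR adjusted p = 0.778) and with DESeq2 (0.94, adjusted p = 0.287).

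Over the 9 genes, juvenile bmEC-like cells had 1 higher and 5 lower (37.6% of all genes tested were called), mpEC-like cells 4 lower (29%), aEC-like cells 4 higher and 1 lower (14.9%) and rEC-like cells 3 higher and 2 lower (3.1%). The direction of change thus differed between classes, and a test of class by group called 7 of the 9 genes where 11% of all genes were called. Fabp4 was among them, lower in bmEC-like cells (22407 and 23109 against 27535 and 27038 CPM) and higher in aEC-like cells (11654 and 12405 against 8262 and 8273 CPM). In mpEC-like cells it was lower over the class (-0.28) and higher within cluster 2 alone (0.26), the cluster that was largest in every library but the juvenile ones.

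**Figure D4:**
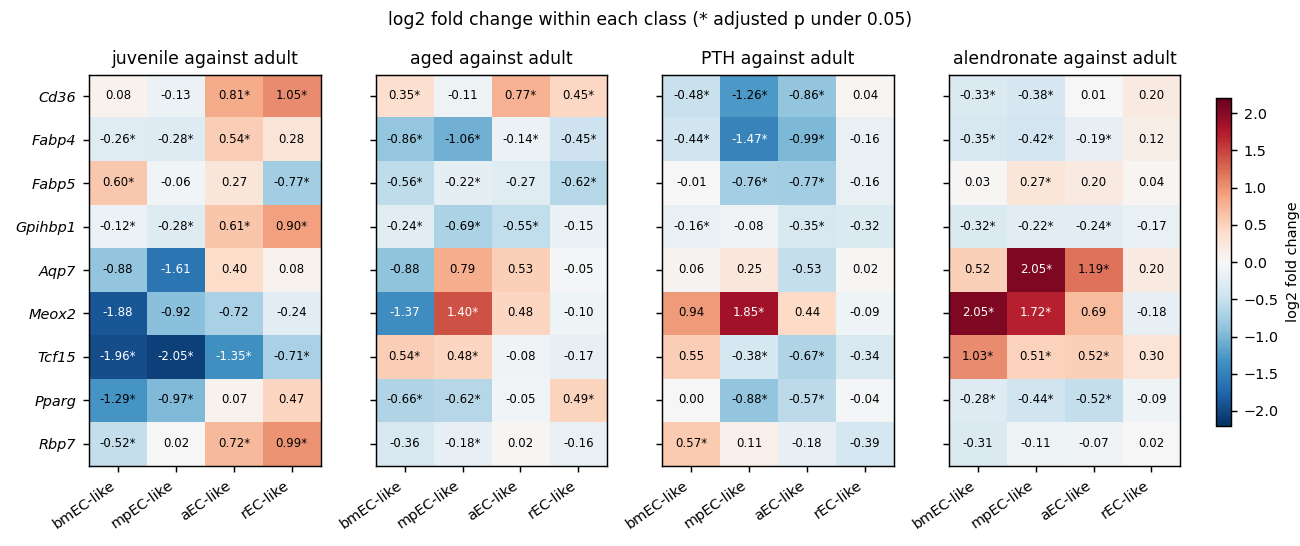
Log2 difference of each gene from the adult libraries in juvenile, aged, PTH and alendronate libraries, within 4 endothelial classes, with an asterisk where the adjusted p was under 0.05. PTH has no asterisk in the rEC-like column and its lowest values for Fabp4 (-1.47) and Cd36 (-1.26) in mpEC-like cells.

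Aged bone was compared with adult bone under a wide shift of the transcriptome. The aged libraries had 65.3% of all genes called in bmEC-like, 65.8% in mpEC-like, 59% in aEC-like cells and, in rEC-like cells, 46.2%. The 9 genes had 6, 7, 3 and 4 calls in these classes, and such shares near or below the background are not a result about them. Age and any difference in how the aged tables were made, which listed 276 more symbols and shared fewer barcodes, cannot be told apart. The values of the 9 genes are given as measured. Fabp4 fell from 27535 and 27038 CPM in adult to 16775 and 17282 CPM in aged bmEC-like cells (-0.86 ± 0.02), from 13683 and 13693 to 7173 and 7018 CPM in mpEC-like cells (-1.06 ± 0.04) and from 23602 and 23320 to 16004 and 18176 CPM in rEC-like cells (-0.45 ± 0.09). With classes from the rule's markers the mpEC-like difference of Fabp4 was -0.33. Cd36 went the other way, to 3374 and 3439 CPM in aged rEC-like cells (0.45 ± 0.09) and 1423 and 1338 CPM in aged aEC-like cells (0.77 ± 0.06). Each aged library was above both adult libraries there. The aEC-like call of Cd36 was lost without integration (0.14).

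Gpihbp1 in aged mpEC-like cells was at 1784 and 1848 CPM against 2748 and 2674 CPM (-0.69 ± 0.04), and Fabp5 in aged rEC-like cells at 667 and 798 CPM against 1195 and 1059 CPM (-0.62 ± 0.10). Pparg fell in bmEC-like cells, to 287 to 297 from 406 to 414 CPM (-0.66 ± 0.05), and in mpEC-like cells, to 118 to 134 from 176 to 184 CPM (-0.62 ± 0.07). Both calls held under every alternative that gave a value. In rEC-like cells Pparg was at 128 and 131 CPM against 75.9 and 112 CPM (0.49 ± 0.19), and that call was lost under 6 alternatives. They were the fits without adult replicate 1 (0.22, edgeR adjusted p = 0.536) and without aged replicate 2 (0.49, 0.0616), classes from the rule's markers (0.31, 0.361), the stricter filter on cells (0.43, 0.092), 15 principal components (0.45, 0.0512) and DESeq2 (0.53, 0.148), each with its adjusted p. The test of class by group called 6 of the 9 genes, with 19.7% of all genes called. Summed markers of blood cells in bmEC-like cells stood at 83.8 and 107.7 CPM in aged against 45.3 and 45.9 CPM in adult libraries, and their part in these results was not tested.

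With PTH, Fabp4 and Cd36 were lower in metaphyseal, arterial and sinusoidal cells. Fabp4 stood at 5011 and 4928 CPM in PTH against 13683 and 13693 CPM in adult mpEC-like cells, a log2 difference of -1.47 ± 0.04 (edgeR adjusted p = 1.02e-26). In aEC-like cells it stood at 4216 and 4169 against 8262 and 8273 CPM (-0.99 ± 0.04), and in bmEC-like cells at 20548 and 20239 against 27535 and 27038 CPM (-0.44 ± 0.02). Both PTH libraries lay below both adult libraries in the 3 classes. Of haematopoietic cells, 52.0% had a UMI of Fabp4 at 1000 UMIs. The bmEC-like cells made up 43.8% and 45.7% of endothelial cells in adult and 32.1% and 23.7% in PTH libraries. The part of free RNA in the Fabp4 levels was not tested. Within the metaphyseal cluster 2 alone the differences were -1.16 for Fabp4 and -0.94 for Cd36. Over the class Cd36 stood at 248 and 233 against 535 and 601 CPM in mpEC-like cells (-1.26 ± 0.06), at 381 and 456 against 790 and 743 CPM in aEC-like cells (-0.86 ± 0.06) and at 538 and 537 against 732 and 751 CPM in bmEC-like cells (-0.48 ± 0.04).

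Other members were lower in these classes too, by less. Fabp5 in mpEC-like cells stood at 62.5 and 66.1 against 115 and 102 CPM (-0.76 ± 0.09) and Pparg at 98.4 and 99.0 against 176 and 184 CPM (-0.88 ± 0.07, and -0.56 within metaphyseal cluster 2). Tcf15 in aEC-like cells stood at 130 and 153 against 216 and 241 CPM (-0.67 ± 0.10). These calls on Fabp5 and Tcf15 were lost when cells were classed by the rule's markers (-0.48 and -0.33), and that of Pparg in mpEC-like cells was kept (-0.58). Fabp5 in mpEC-like cells was also near the background in its share of cells. In aEC-like cells Pparg stood at 70.4 and 55.9 against 91.2 and 87.8 CPM (-0.57 ± 0.11), a call lost without PTH replicate 2 (-0.35, edgeR adjusted p = 0.197) and with classes from the rule's markers (-0.41, edgeR adjusted p = 0.239). Pparg in bmEC-like cells, its main site, was at 429 and 407 against 406 and 414 CPM (0.00), and Gpihbp1 in mpEC-like cells, one of its main sites, at 2539 and 2610 against 2748 and 2674 CPM (-0.08), neither past the test.

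In rEC-like cells none of the 9 genes passed the threshold under PTH in edgeR (3.23% of all genes called). At an unadjusted p under 0.05 there were 3, Gpihbp1, Rbp7 and Tcf15, DESeq2 called 1, Tcf15, and the smallest edgeR adjusted p, for Tcf15, was 0.0638. Fabp4 there stood at 19381 and 22036 against 23602 and 23320 CPM and Cd36 at 2096 and 2834 against 2394 and 2594 CPM. The libraries of the 2 groups overlapped for Cd36 and not for Fabp4. PTH replicate 1 gave only 38 of these cells. With simulated 2-fold changes between aged and adult libraries, the group test recovered 106 of 200 genes in rEC-like cells. It recovered 200, 196 and 191 of 200 in bmEC-like, mpEC-like and aEC-like cells. A missing call in rEC-like cells is therefore not a lack of change. Calls were 1 higher and 3 lower in bmEC-like (9.5% of all genes), 1 higher and 5 lower in mpEC-like (17.7%) and 6 lower in aEC-like cells (7.72%). The higher call in bmEC-like cells was Rbp7 (0.57 ± 0.14), which was not told from free RNA there. It was lost under 6 alternatives and turned in sign under 1. The PTH change differed between classes in 7 of the 9 genes (6.58% of all genes called), with an edgeR adjusted p of 1.76e-33 for Fabp4 and 4.15e-23 for Cd36.

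**Figure D5:**
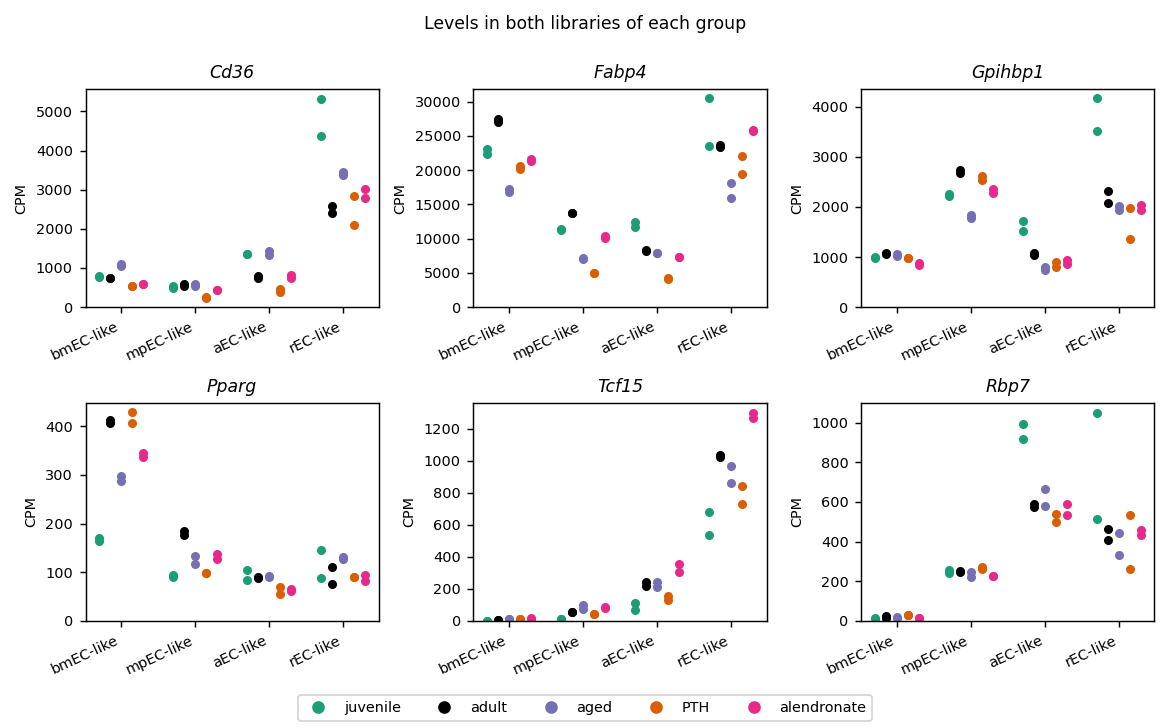
Levels in CPM of Cd36, Fabp4, Gpihbp1, Pparg, Tcf15 and Rbp7 in 4 endothelial classes, with 1 dot per library and the 5 groups side by side. Both PTH dots of Fabp4 in mpEC-like cells sit near 5000 CPM under adult dots at 13683 and 13693 CPM, and the juvenile rEC-like dots of Cd36 (5314 and 4370 CPM) sit above all others of that class.

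In alendronate libraries Tcf15 was higher and Fabp4, Cd36, Gpihbp1 and Pparg were lower in some of the classes. Tcf15 rose in bmEC-like cells from 8.20 and 6.36 to 14.3 and 15.9 CPM (1.03 ± 0.17), a level near the background, and in aEC-like cells from 216 and 241 to 357 and 307 CPM (0.52 ± 0.09). The share of rEC-like cells was 11.8% and 12.3% in alendronate libraries, against 4.86% and 4.49% in adult ones. Beyond the removal of doublets, the part of their RNA in these Tcf15 levels was not tested. In rEC-like cells Tcf15 was at 1296 and 1265 against 1024 and 1037 CPM (0.30 ± 0.10) and did not pass the test (edgeR adjusted p = 0.0788). Fabp4 fell in bmEC-like cells to 21640 and 21397 CPM (-0.35 ± 0.02) and in mpEC-like cells to 10354 and 10139 CPM (-0.42 ± 0.04). Cd36 fell in the same classes by 0.33 and 0.38 on the log2 scale, and Gpihbp1 by 0.32 and 0.22. In mpEC-like cells the call of Cd36 was lost with classes from the rule's markers (-0.20) and that of Gpihbp1 with the largest cluster of each class (-0.07). All 4 of these differences of Fabp4 and Cd36 were smaller than those under PTH in the same class. That difference between the treatments was not tested. Pparg was lower in bmEC-like (-0.28 ± 0.04), mpEC-like (-0.44 ± 0.07) and aEC-like cells (-0.52 ± 0.11). Its bmEC-like call held under every alternative, and the mpEC-like call was lost with the largest cluster of each class (-0.21). The aEC-like call was lost with DESeq2 (-0.50) and with classes from the rule's markers (-0.32).

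Under alendronate, bmEC-like cells had 2 of the 9 genes higher and 4 lower (17.6% of all genes called), mpEC-like cells 4 higher and 4 lower (13.5%), aEC-like cells 2 higher and 3 lower (7.78%) and rEC-like cells none in edgeR (2.84%). In the rEC-like cells 2 genes, Cd36 and Tcf15, had an unadjusted p under 0.05 and DESeq2 called 0. As under PTH, a missing call in this class is not a lack of change. Of the calls outside rEC-like cells, 4 were of Aqp7 and Meox2 at levels under 20 CPM. The test of class by group called 4 of the 9 genes (3.5% of all genes). The 19 calls of this comparison fell to 12 with DESeq2, with classes from the rule's markers and with the largest cluster of each class, and for 4 of the 19, all of Aqp7 or Meox2, DESeq2 gave no adjusted p.

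Genes around the 9 in the same pathway were counted from lists of 12 to 20 genes, and 22.7% of all genes tested were called between rEC-like and bmEC-like cells. Among 8 tested genes of lipoprotein lipolysis, 2 were higher and 4 lower in rEC-like than in bmEC-like cells. Lpl, the lipase that GPIHBP1 holds, stood at 886 ± 507 CPM in rEC-like cells and 142 CPM in bmEC-like cells, with 12.3 to 24.9 CPM in the other classes, and was 2.55, 5.11, 6.26 and 5.30 log2 units higher in rEC-like than in bmEC-like, mpEC-like, aEC-like and Tagln/Vwf cells. Lipg, the endothelial lipase, and Angptl4, an inhibitor of lipoprotein lipase, peaked in bmEC-like cells instead, at 386 and 362 CPM. Lpl and Gpihbp1 were thus both high in rEC-like cells, while mpEC-like cells held Gpihbp1 with little Lpl.

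For lipid stores, 3 of 9 tested genes were higher and 1 lower in rEC-like than in bmEC-like cells. Mgll, which splits monoglycerides into fatty acid and glycerol, was at 1267 CPM in rEC-like cells and 3.82 log2 units above bmEC-like cells. Lipe, hormone-sensitive lipase, was at 178 CPM and 3.20 above, and Plin2, which coats lipid droplets, was 1.47 below. Of 5 tested genes of glycerol and water transport 3 were higher. Among them Aqp1, a water channel, stood at 4687 CPM in rEC-like and 3426 CPM in Tagln/Vwf cells. Of 17 tested genes of mitochondrial beta-oxidation, 0 were called in any of the 4 comparisons of rEC-like cells by edgeR at a difference over 1 log2 unit. At an unadjusted p under 0.05, whatever the size, there were 12, 11, 7 and 6 against bmEC-like, mpEC-like, aEC-like and Tagln/Vwf cells, and DESeq2 called 1 of the list, against aEC-like cells. Of 9 genes of fatty acid uptake and activation 1 was higher and 2 lower, of 8 PPAR and partner receptor genes 1 was lower, and of 4 retinoid genes 1 was higher and 1 lower. Against the 22.7% of all genes, the counts of the uptake and PPAR lists are near or below the background and are not a result about them, and the glycerol and retinoid lists hold few genes. Under PTH, 4 of 9 tested genes of lipoprotein lipolysis and 4 of 10 of the lipid stores were lower in mpEC-like cells, with 0 and 1 higher, where 17.7% of all genes were called.

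Over the 69 sums of class and library, the genes most alike in level to each member were ranked by Pearson's correlation of log2 CPM. Beside the classes compared, these included sums of the haemoglobin-led cluster and of proliferating endothelial cells. The sums share libraries and depth, and the values are descriptions. Aqp7 was most like Kcna5 (0.96), Slc28a2 (0.95) and Timp4 (0.94), and Meox2 most like C1qtnf9 (0.98) and Mustn1 (0.97). Tcf15 was most like Itpkb (0.94), Rbp7 most like Pcdh1 (0.95) and Cd36 most like Cyth1 (0.85). Pparg was most like Axl (0.86), Fabp4 most like Pim3 (0.83) and Gpihbp1 most like Jup (0.82). Fabp5 came with Gm6166 (0.95), with which it shares sequence, and then Mustn1 (0.93) and Meox2 (0.93). Between members, Cd36 had its highest value of these with Aqp7 (0.82) and stood near 0 with Gpihbp1 (0.09) and Pparg (-0.05).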

How the data were processed

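The authors demultiplexed cells with UMI-tools 1.1.2, aligned reads to mm10 with STAR 2.7.10a and assigned them to genes with featureCounts 2.0.3 (Subread), and deposited raw counts of UMIs, genes by cells, in 1 table per library. The annotation release and strand setting were not given in the sources used here. Libraries were grouped by their labels (juvenile, adult, aged, PTH, alendronate, 2 each), and replicate numbers did not pair them: same-numbered libraries of different groups deviated with correlations of -0.0848 to 0.0783, so the number was a block only in an alternative. Total depth was 10653583 to 28419323 UMIs.

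The 10 libraries were integrated by Seurat 5.3.0 anchors (2000 variable features, 30 principal components, resolution 0.5) with the 9 genes and other transport and cell cycle genes, 192 in all, held out of the variable features. Clusters were named from marker lists and non-endothelial clusters set aside, and no doublets were removed except in an alternative. UMIs were summed per class and library (at least 20 cells) and tested with edgeR 4.0.16 (filterByExpr, TMM, quasi-likelihood) in R 4.3.3, between classes with the library as a block and between groups within a class with all 10 libraries in the fit. Standard errors are the log2 difference over the square root of F. Adjusted p-values are Benjamini-Hochberg values over all genes tested. A class call needed an adjusted p under 0.05 and over 1 log2 unit, a group or class-by-group call an adjusted p under 0.05. Shares were taken after thinning cells to 1000 UMIs in Python 3.11.15 with numpy 2.4.6. Cluster levels and marker levels used plain totals. Scripts were tested on simulated data, where the group test recovered fewer of the changed genes in rEC-like cells (106 of 200 at a 2-fold change) than in the other classes.

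Alternatives were DESeq2 1.42.0, RLE factors, no filter on low counts, at least 50 cells per sum, other resolutions, 15 principal components, no integration, classes from the rule's markers, stricter cell filters, doublets removed, no library block, the replicate block, sums over all endothelial cells, 2000 UMIs or no thinning, and each library left out. Added after seeing the data were the largest cluster of each class and the removal of both aged libraries. All 9 genes were named, and of other genes the 3 most alike to each and, per pathway list, those over 20 CPM with the largest called differences. The genes and lists were chosen with earlier results of these data known.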

Additional observations from a re-analysis of the deposited data

Results flagged for a closer look

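Each result here is a gene whose difference from the adult libraries was not equal in the 4 endothelial classes, by edgeR's test of class by group with Benjamini-Hochberg adjustment. No gene was named here for a single outlying library, because groups of 2 libraries are too small for that.

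In juvenile against adult libraries, 7 genes differed between classes. The adjusted p was 5.89e-22 for Cd36, 2.99e-22 for Gpihbp1 and 1.38e-21 for Fabp4, each of which was higher in juvenile aEC-like cells and not in mpEC-like cells. It was 3.61e-12 for Fabp5, higher in juvenile bmEC-like and lower in juvenile rEC-like cells. In bmEC-like cells Fabp5 was not told from free RNA (a UMI in 5.51% of cells against 6.38% of haematopoietic cells), and its rEC-like fall was lost without juvenile replicate 2 (-0.62, edgeR adjusted p = 0.0568). The adjusted p of the class-by-group test was 1.78e-13 for Pparg, lower in bmEC-like and mpEC-like cells, 7.72e-11 for Rbp7 and 1.33e-05 for Tcf15, which fell in all 4 classes by unequal amounts.

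In aged against adult libraries 6 genes differed between classes, with adjusted p of 8.95e-15 for Cd36, 6.88e-22 for Fabp4, 0.0036 for Fabp5, 2.62e-09 for Gpihbp1, 5.85e-08 for Pparg and 8.82e-07 for Tcf15. With 19.7% of all genes called by the same test, such differences were common in aged libraries.

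Under PTH 7 genes differed between classes. The adjusted p was 1.76e-33 for Fabp4 and 4.15e-23 for Cd36, both with their most negative log2 difference in mpEC-like cells, 4.82e-14 for Pparg, 3.07e-07 for Fabp5, 0.000327 for Rbp7, 0.000378 for Tcf15 and 0.0305 for Meox2, whose levels in bmEC-like and mpEC-like cells were a few CPM. Under alendronate 4 genes differed, with 7.87e-12 for Fabp4, 4.90e-10 for Cd36, 0.000177 for Meox2 and 0.00117 for Aqp7, the last 2 at levels under 20 CPM in bmEC-like, mpEC-like and aEC-like cells.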

How the results depend on the processing

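Of the 62 calls between classes, 57 kept their direction and their side of the threshold under every alternative run, and none reversed. The number of calls ran from 60 to 68. Of the 75 calls between groups, 40 did so, counting alternatives that gave an adjusted p. Counts of member calls were 20, 20, 16 and 19 of 36 in juvenile, aged, PTH and alendronate libraries and 24 of 36 for class by group. Alendronate fell to 12 calls with DESeq2 (4 of the 19 had no adjusted p there), to 12 with classes from the rule's markers and to 12 with the largest cluster of each class. Sums over all endothelial cells gave 8, 9, 5 and 8 calls, of 9 possible by construction. Leaving out 1 library gave 18 to 21, 18 to 23, 14 to 17 and 15 to 20 calls in the 4 comparisons, 22 to 27 for class by group and 62 to 64 between classes. With the replicate number as a block the counts were again 20, 20, 16 and 19, and over all genes 2188 in place of 2210 in PTH mpEC-like cells.

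In all, 10 signs turned. Without integration they were Gpihbp1 in juvenile bmEC-like (0.13), Rbp7 in juvenile bmEC-like (1.04) and Gpihbp1 in aged aEC-like cells (0.32). With classes from the rule's markers they were Tcf15 in aged bmEC-like (-0.20), Rbp7 in PTH bmEC-like (-0.006), Fabp5 in aged mpEC-like (0.54), Rbp7 in aged mpEC-like (0.44) and Gpihbp1 in alendronate aEC-like cells (0.0602). With the largest cluster of each class they were Tcf15 in aged bmEC-like (-0.76) and Fabp4 in juvenile mpEC-like cells (0.26). The cause was not tested for any of them.

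Counts over all genes moved by more than 1.5 times most often with DESeq2, from 1263 to 505 in PTH bmEC-like, 2210 to 954 in PTH mpEC-like, 884 to 348 in PTH aEC-like and 276 to 138 in PTH rEC-like cells, and from 2339 to 850, 1689 to 627, 891 to 341 and 243 to 93 in the same classes under alendronate. In juvenile libraries they moved from 5003 to 2528, 3621 to 1865 and 1709 to 895 in bmEC-like, mpEC-like and aEC-like cells, and in aged rEC-like cells from 3948 to 2282. With classes from the rule's markers PTH mpEC-like cells had 385 and alendronate mpEC-like cells 357. The rEC-like sums rested on few cells in the juvenile libraries (49 and 32) and PTH replicate 1 (38), which limits their precision.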

Other observations

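The haemoglobin-led cluster, which was kept out of the 5 classes, held most of the 9 genes at mean levels nearer those of bmEC-like than of rEC-like cells. Fabp4 did not separate these 2 classes and was below both in the cluster. Over its 10 libraries Fabp4 was at 16480 ± 6250 CPM (SD), Cd36 at 781 ± 186 CPM, Pparg at 263 ± 89.4 CPM and Gpihbp1 at 901 ± 270 CPM, and Aqp7 was at 2.88 CPM with 0 to 3 UMIs in each library. Fabp4 there stood at 5210 and 6348 CPM in the aged libraries, against 23247 and 23096 CPM in the adult ones, and Gpihbp1 at 456 and 451 against 1214 and 1108 CPM. These 2 genes were lower in both aged libraries than in any other library.

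Proliferating endothelial cells reached 20 cells in 9 libraries. They held Gpihbp1 at 1718 ± 272 CPM, Fabp4 at 7479 ± 2465 CPM, Cd36 at 311 ± 86.0 CPM and Rbp7 at 170 ± 89.5 CPM, the last 3 closer to mpEC-like than to rEC-like levels, and Tcf15 at 18.3 ± 12.9 CPM.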
